A study of Mus musculus with 24 samples.

Results

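Retinal pigment epithelium (RPE) of mice that carry a floxed cilium gene and a Cre driver of pigment cells was followed here from postnatal day 29 (P29) to 3 months (3M). The libraries are the 8 of the 24 in the series that are labelled mutant at either of those ages, 4 at each, and all genes counted in them were taken. The mutant mice carried the Dct-Cre driver together with the floxed Ift20 gene. Controls of the same ages, 4 libraries each, carried the same driver. They are used for their own change with age, for tests of a difference from them and, without a test, beside marker sums. They also enter the fit of all 24 libraries. All animals were untreated and of mixed background strain, and their sex was not recorded. The sources used here give neither the number of floxed alleles nor the floxed exons. Dct-Cre is driven by the promoter of dopachrome tautomerase, a melanin enzyme, so recombination is not restricted to the RPE and can reach melanocytes. RNA came from isolated RPE cells taken as bulk, so fewer cells of a type and less RNA per cell cannot be told apart in any value below.

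The RPE is the pigmented single layer of cells between the photoreceptors and the choroidal vessels. It turns spent chromophore back into its light-sensitive form in the visual cycle, digests the tips that photoreceptors shed each day, moves glucose, lactate, ions and water, and builds part of the membrane it rests on. Ift20 encodes a small subunit of the intraflagellar transport machinery, which carries cargo along the primary cilium and sorts cargo at the Golgi. The cilium of the RPE is known mainly for its part in the maturation of this epithelium after birth.

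The kit read the 3' ends of polyadenylated transcripts, so that a transcript gives reads in proportion to its copies and not to its length. Values are CPM, counts relative to a common library total after scaling between libraries, and fold changes are log2(3M/P29) from a quasi-likelihood fit of edgeR to all 24 libraries with its standard error (SE); a gene said to rise or fall by an amount did so on that log2 scale. A gene was called where its p, adjusted by Benjamini and Hochberg's method, was under 0.05 over all 12303 genes tested. Gene counts of the mutant libraries totalled 2141745 to 2519882 at P29 and 2335766 to 2672988 at 3M. Of 8 library measures compared by exact permutation (70 assignments, smallest possible p 0.0286), 4 did not overlap between the ages. The share of reads outside any feature was lower at 3M (18.7% against 20.8%), as was the share of haemoglobin counts (0.243% against 0.388%), while the shares of ambiguous reads (0.306% against 0.282%) and of the 20 most abundant genes (31.5% against 29.2%) were higher; each had an exact permutation p of 0.0286 and an adjusted p of 0.0571. The mitochondrially encoded share was 5.84% at P29 and 5.8% at 3M (exact permutation p = 0.914). Biological variation within a group, as a coefficient, was 21.8% at P29 and 14.9% at 3M, so that the younger group is the less precise.

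A transcript of the RPE was looked at first. Rpe65, the isomerase that defines this epithelium and was chosen here after its values were seen, stood at 6098, 6074, 5879 and 6019 CPM at P29 and 7896, 7968, 7768 and 7143 CPM at 3M. Transcripts of rod photoreceptors were also abundant in every library. Best1, another gene of the RPE, had only 5 counts over the P29 group and 3 over the 3M group. Rpe65 alone is therefore no full check of RPE identity. Xist, the RNA that coats the inactive X chromosome of females, lay between 409 and 493 CPM at P29 and between 424 and 477 CPM at 3M. Y-linked transcripts lay between 53.6 and 72.3 CPM at P29 and between 74.0 and 92.1 CPM at 3M, so that each mutant library held transcripts of both sexes. A sex score, the log2 ratio of Xist to Y-linked transcripts, was 2.52 to 3.13 at P29 and 2.36 to 2.64 at 3M, and with this score as a covariate 617 genes were called higher and 861 lower in the comparison that follows. The labels call the 4 libraries of a group biological replicates and also speak of RNA being mixed, and the sources used here do not say how many animals a library holds. The p-values therefore measure the spread between these libraries, which may in part be technical.

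Between P29 and 3M, 1564 genes (12.7% of those tested) changed in mutant RPE, 669 of them higher (5.44%) and 895 lower (7.27%). The falls were the deeper: 470 genes fell at least 2-fold and 73 rose at least 2-fold. The 4 libraries of each age did not overlap for 595 of the genes that rose and 732 of those that fell, while 18% of all genes tested did not overlap. The median log2 fold change over all genes was -0.012. Most of the called genes on the lists for the visual cycle, ion and metabolite transport and lipid use were higher at 3M, and most of those on the lists for the melanosome, the matrix, the immediate early response and several neighbouring tissues were lower.

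**Figure D1:**
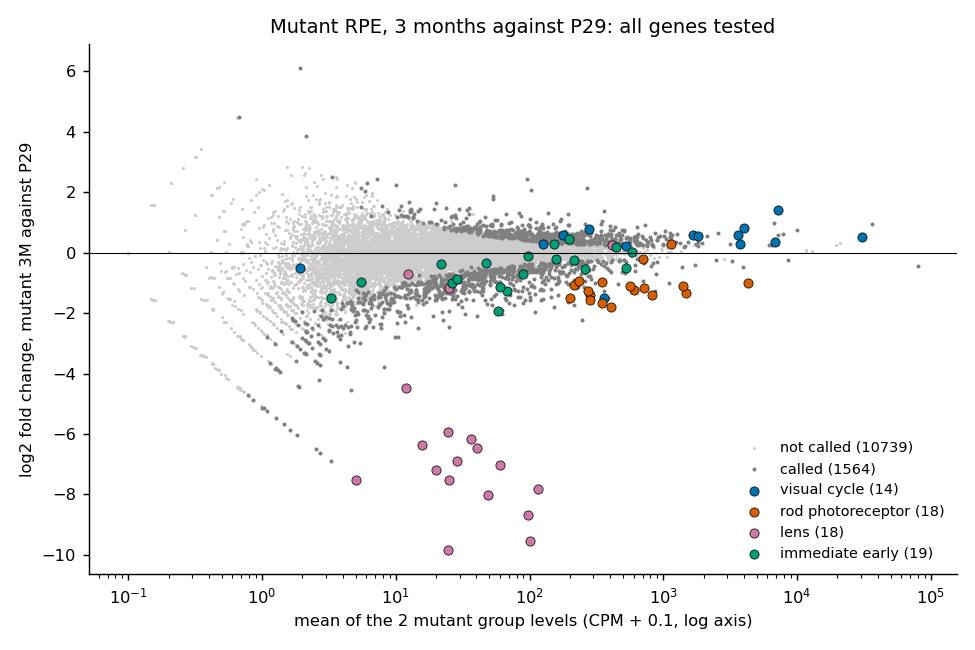
Each point is 1 of the 12303 genes tested, placed by its mean level in mutant libraries (CPM, log axis) and its log2 fold change from P29 to 3M. Visual cycle genes sit mostly above 0, rod and immediate early genes mostly below it, and 17 of the 18 tested lens genes lie below 0, most of them by more than 4 log2 units.

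The pathway lists, described by the share of their tested members that rose or fell, spread widely around these background shares. The bar chart of lists sets them out, and no test was made of any list as a whole. Counts of 1 or 2 members were the least stable. Leaving out single mutant libraries changed such counts by more than 1.5 times for the lists of interferon (lower), complement (higher), glycolysis (higher), lipid use (lower), antioxidants (lower), the BBSome (higher), cones (higher), inner retina (higher), lens (higher), macrophages (lower), Müller glia (lower) and myelin (higher). The labels do not say if the counting took strand into account. For 27 of the 162 genes named with values, another counted gene lies on the opposite strand within the last 500 bases, and reads of the 2 cannot be told apart: Ciart, Tcfl5, Enho, Cryba1, Mip, Pmel, Rcvrn, Ctsb, Kcnj13, Car14, Timp3, Dbp, mt-Nd6, Pltp, Mt2, Sod1, Cep290, Gli1, Bmp4, Ccnd1, Nefl, Plvap, Notch3, Csf1r, Xist, Serpine3 and Manf. For Ramp2 the overlap is on its own strand.

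**Figure D2:**
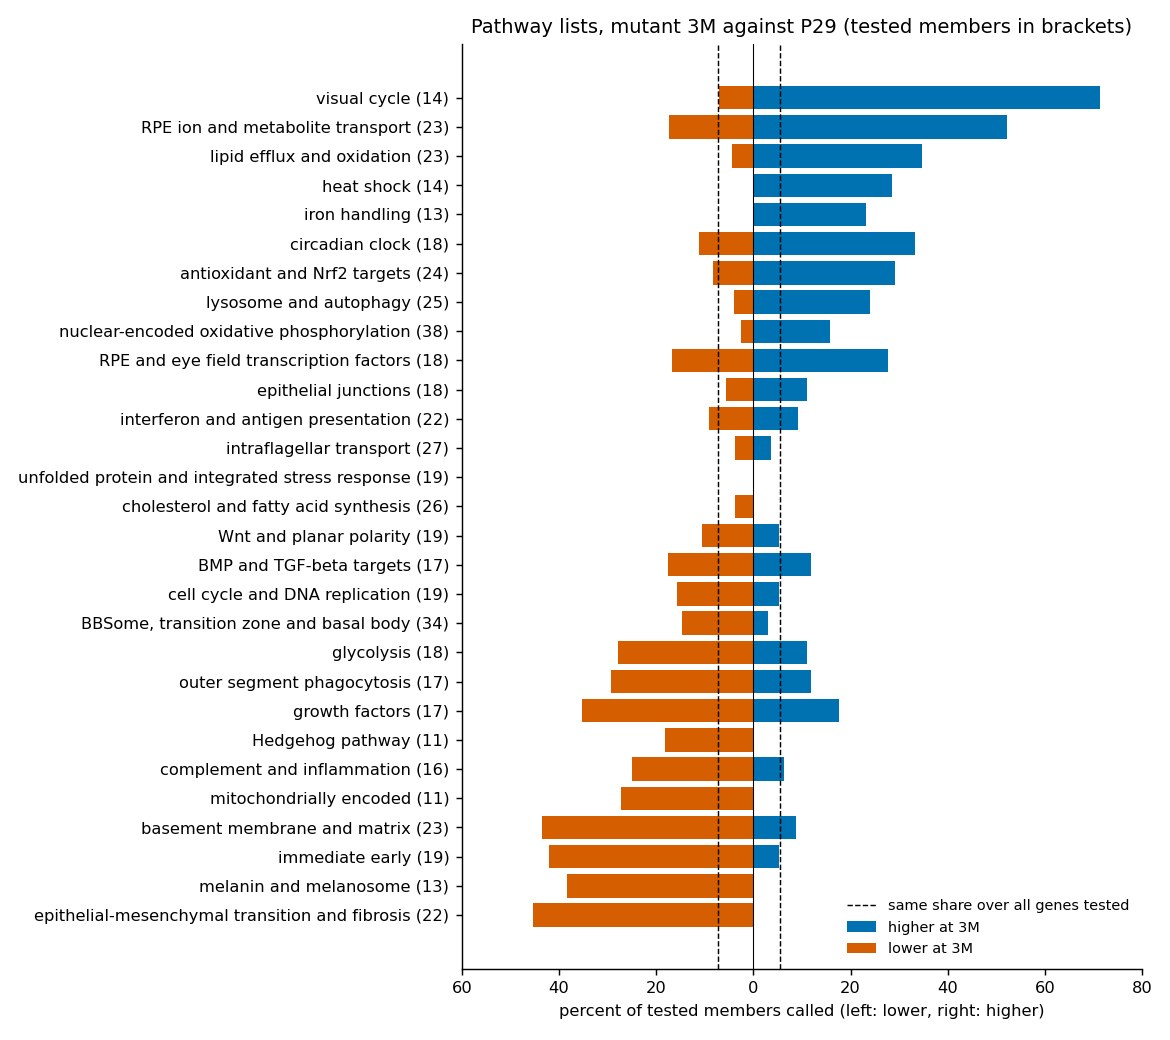
Bars give the percentage of tested members of each pathway list called higher (right) or lower (left) in mutant RPE at 3M, with the number tested in brackets and dashed lines at the shares over all genes, 5.44% and 7.27%. Visual cycle and transport lists extend furthest to the right, and the lists for fibrosis, matrix, immediate early genes and melanosomes furthest to the left.

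Most visual cycle genes rose in mutant RPE between the ages. Of 14 members tested, 10 were higher and 1 lower, with a median log2 fold change of 0.53. Rgr, an opsin of the RPE that takes part in regenerating chromophore in light, had the smallest p of all genes. It stood at 3890.5, 4123, 3961 and 3846 CPM at P29 and 11069, 10083, 9798 and 10644 CPM at 3M. All libraries at 3M lay above all libraries at P29, a log2 fold change of 1.39 ± 0.046, adjusted p = 4.04e-47. Rdh5, the dehydrogenase that completes the cycle in the RPE, stood at 3160.4, 2937, 2889.7 and 2803 CPM at P29 and 5223, 5016, 5289 and 4975 CPM at 3M, again without overlap (log2 fold change 0.80 ± 0.051, adjusted p = 1.84e-25). Ttr, which carries thyroid hormone and retinol-binding protein, was among the most abundant transcripts, at 25352, 25817, 23760.0 and 24959 CPM at P29 and 37220.0, 35916, 35433 and 35586 CPM at 3M; it rose by 0.53 (adjusted p = 1.91e-25). Rpe65 rose less, by 0.35 (adjusted p = 9.6e-11). Rlbp1, Lrat, Rdh10, Rrh and Rdh11 were among the other members that rose. The exception was Rbp3, the retinoid carrier that photoreceptors secrete, which lay at 502 to 555 CPM at P29 and 159 to 206 CPM at 3M (log2 fold change -1.502 ± 0.089, adjusted p = 8.01e-28).

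The promoter of Rgr is shown because this gene changed with the smallest p, and because Otx2, which binds the core letters TAATCC, rose as well. The window runs from 250 bases before to 50 bases after the start given by RefSeq on GRCm38.p6, and capitals mark the core on either strand. Rgr lies on the minus strand, at chr14:37048965-37049264.
Rgr: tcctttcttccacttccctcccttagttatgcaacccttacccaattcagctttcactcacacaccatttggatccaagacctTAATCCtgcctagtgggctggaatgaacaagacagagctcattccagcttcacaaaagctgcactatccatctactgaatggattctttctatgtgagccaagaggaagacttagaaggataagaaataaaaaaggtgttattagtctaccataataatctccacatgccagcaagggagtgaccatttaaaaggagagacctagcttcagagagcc
The core was found once in this window. It occurs on either strand in 7.06% of 32851 promoters of the same length. Of the 10 visual cycle members that rose, 7 had a promoter in the table and 2 of these, Rgr and Rpe65, held it. Such a match describes letters and not binding.

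Of 23 tested members of the list for ion and metabolite transport across the epithelium, 12 were higher and 4 lower, with a median log2 fold change of 0.19. Kcnj13, the apical potassium channel of the RPE, stood at 513, 511, 512 and 477 CPM at P29 and 966, 979, 948 and 904 CPM at 3M (log2 fold change 0.91 ± 0.076, adjusted p = 1.58e-18). Slc2a1, the glucose transporter that feeds the outer retina, was at 627, 751, 652 and 676 CPM at P29 and 1090.5, 1034, 983 and 1125 CPM at 3M (log2 fold change 0.64 ± 0.072, adjusted p = 2.85e-12). For both genes the lowest library at 3M exceeded the highest at P29. Car14, a membrane-bound carbonic anhydrase, rose by 0.34 (adjusted p = 3.89e-06), and Slc16a8 and Bsg were among the other members that rose. The largest fall on the list was that of Trpm1, a channel of melanocytes and of bipolar neurons, which lay at 139 to 196 CPM at P29 and 69.2 to 82.5 CPM at 3M (log2 fold change -1.203 ± 0.11, adjusted p = 7.47e-16).

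Some genes for handling iron, lipid and oxidants rose, a minority of each list. Trf, the iron carrier transferrin, moved from 7767, 7299, 7331 and 7437 CPM at P29 to 12403, 12677, 12585 and 12410.0 CPM at 3M (log2 fold change 0.75 ± 0.042, adjusted p = 2.47e-29), and Ftl1, the light chain of the iron store ferritin, rose by 0.47 (adjusted p = 1.06e-06). These with Fth1 are the 3 of 13 iron genes called. Fth1 lost its call without P29 replicate 3, 3M replicate 1 or 3M replicate 2 (adjusted p = 0.0608, 0.146 and 0.0569). Of 23 genes for lipid efflux and oxidation, 8 were higher and 1 lower, with a median of 0.24. Pltp, which moves phospholipid onto lipoproteins, lay at 367 to 395 CPM at P29 and 588 to 649.9 CPM at 3M (log2 fold change 0.72 ± 0.084, adjusted p = 1.34e-11), and Plin2, the coat of lipid droplets, at 77.8 to 93.3 CPM at P29 and 144 to 172 CPM at 3M (log2 fold change 0.95 ± 0.13, adjusted p = 1.92e-09). Apoe, the main lipoprotein of the retina, rose by 0.39 (adjusted p = 3.85e-11). Apoe, Rlbp1 and Car14 are also transcribed in Müller glia and are themselves on the list of glial markers. Of 11 such markers tested, 5 were higher, these genes with Clu and Glul, and 1, Dkk3, lower. The median of the list was -0.16. The markers, these genes included, summed to 17953 to 18627 CPM at P29 and 22664 to 23797 CPM at 3M. The part of glial RNA in these rises was not tested.

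Of 24 antioxidant genes and targets of the factor Nrf2, 7 were higher and 2 lower, with a median of 0.35. The metallothioneins, which bind zinc and copper, led them. Mt2 stood at 2808, 2975, 2821 and 2968 CPM at P29 and 5201, 4918, 4835 and 5340.5 CPM at 3M (log2 fold change 0.81 ± 0.058, adjusted p = 3.18e-20), and Mt1 lay at 5484 to 6088 CPM at P29 and 8428 to 9027 CPM at 3M (log2 fold change 0.58 ± 0.051, adjusted p = 1.07e-16). Neither gene overlapped between ages. Sod1, the cytosolic superoxide dismutase, rose by 0.54 and Gsta4, which conjugates the lipid peroxidation product hydroxynonenal, by 0.61 (adjusted p = 3.62e-10 and 8.24e-06). Nqo1 and Txnrd1, both targets of Nrf2, were the 2 called lower; leaving out any of the 8 mutant libraries left 0 or 1 of them called.

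The Mt2 promoter is shown because metallothionein genes are the textbook example of control through the metal response element. Capitals mark, on either strand, the letters TGCNCNC, with N any base, a loose form of its core. It lies on the plus strand at chr8:94172368-94172667 (RefSeq, GRCm38.p6).
Mt2: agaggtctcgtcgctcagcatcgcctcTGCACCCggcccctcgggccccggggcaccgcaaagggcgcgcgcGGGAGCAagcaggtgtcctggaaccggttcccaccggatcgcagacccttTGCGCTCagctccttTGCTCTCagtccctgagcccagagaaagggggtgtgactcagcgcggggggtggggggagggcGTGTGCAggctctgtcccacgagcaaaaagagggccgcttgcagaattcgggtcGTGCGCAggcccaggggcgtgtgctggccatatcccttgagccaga
These loose letters occur 6 times here, and a match need not be a metal response element. At least 1 match is found in 51% of 32851 promoters and at least 6 matches in 0.225%.

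Of 25 lysosomal genes, 6 were higher and 1 lower, with a median of 0.17. Psap, the precursor of the saposins that help to degrade sphingolipids, stood at 2195, 1961, 1933 and 1845 CPM at P29 and 3239.9, 3073, 3068 and 3037 CPM at 3M (log2 fold change 0.65 ± 0.06, adjusted p = 8.79e-16). Lipa, the acid lipase that hydrolyses cholesteryl esters, lay at 89.1 to 108 CPM at P29 and 159 to 201 CPM at 3M (log2 fold change 0.85 ± 0.13, adjusted p = 4.31e-07), and the cathepsins Ctsd and Ctsb rose by 0.28 and 0.33 (adjusted p = 8.69e-06 and 0.00176). Of 17 genes for uptake of outer segments, 2 were higher and 5 lower, against 2 lower without 3M replicate 1 and 3 lower without 3M replicate 2 or P29 replicate 1. Mertk, the receptor kinase that triggers engulfment, lay at 181 to 241 CPM at P29 and 293 to 336 CPM at 3M and rose (log2 fold change 0.60 ± 0.10, adjusted p = 2.6e-06). Itgav, the integrin subunit that binds shed tips, rose by 0.38 (adjusted p = 0.00358). Among the ligands of these receptors, Mfge8, which bridges to the integrin, lay at 166 to 249 CPM at P29 and 105 to 143 CPM at 3M (log2 fold change -0.66 ± 0.12, adjusted p = 7.64e-06). Tulp1, a ligand of Mertk that photoreceptors make in quantity, fell by 1.12 (adjusted p = 3.37e-18).

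Some pigment genes fell. Of 13 genes of melanin and the melanosome, edgeR called 5 lower and 0 higher, with a median log2 fold change of -0.18; at an unadjusted p under 0.05, 4 were higher, of which DESeq2 called 0 and voom with quality weights called 2. Pmel, whose protein forms the fibrils on which melanin is laid down, had the smallest p of all genes that fell. It stood at 448, 363, 381 and 439 CPM at P29 and 70.2, 98.6, 82 and 97.6 CPM at 3M (log2 fold change -2.23 ± 0.087, adjusted p = 3.28e-38), and every 3M library was below every P29 library by a wide margin. Tyrp1, a melanin enzyme, moved from 319.8, 280.4, 299 and 288 CPM at P29 to 167, 158, 129 and 140.2 CPM at 3M (log2 fold change -0.999 ± 0.093, adjusted p = 7.47e-16). Dct, the enzyme whose promoter drives Cre, lay at 4413 to 4735 CPM at P29 and 3194 to 3560.1 CPM at 3M (log2 fold change -0.47 ± 0.047, adjusted p = 3.45e-14). Mlana, a melanosome protein, fell by 0.84 (adjusted p = 1.9e-05), and Slc45a2 was the fifth gene called.

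Matrix genes divided. Of 23 tested for the basement membrane and matrix, 2 were higher and 10 lower, with a median of -0.35. Timp3, the metalloproteinase inhibitor that the RPE deposits in Bruch's membrane, was the main rise: it stood at 6143, 6371, 6236 and 6104 CPM at P29 and 9367, 9535, 9665 and 9301 CPM at 3M (log2 fold change 0.61 ± 0.043, adjusted p = 8.62e-23). Col8a2, a short-chain collagen of such membranes, rose by 0.50 (adjusted p = 7.79e-10). Eln, the elastin of the middle layer of Bruch's membrane, fell from 41.4, 37.3, 35.3 and 42.6 CPM at P29 to 6.24, 12.6, 12.1 and 10.0 CPM at 3M (log2 fold change -1.94 ± 0.24, adjusted p = 8.61e-11). Vtn, the adhesive protein vitronectin, fell by 0.92 (adjusted p = 1.46e-07), and the subunits Col4a1, Col4a2, Nid1, Hspg2 and Lamc1 of basement membranes were also lower.

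Of 22 genes of epithelial-mesenchymal transition and fibrosis, 10 were lower, with a median of -0.85. Col3a1, a fibrillar collagen, moved from 163, 182, 159 and 193 CPM at P29 to 34.3, 46.1, 56.4 and 41.4 CPM at 3M (log2 fold change -1.97 ± 0.27, adjusted p = 2.63e-05). Col1a2 fell by 1.501 (adjusted p = 4.68e-05). Thbs1, a matrix glycoprotein that the RPE itself makes, lay at 319 to 371 CPM at P29 and 172 to 213 CPM at 3M (log2 fold change -0.76 ± 0.10, adjusted p = 2.2e-10). Tgfb2, the growth factor ligand, fell by 1.01 (adjusted p = 0.0007), although its lowest P29 library, at 17.5 CPM, lay below its highest 3M library, at 19.3 CPM. Col3a1, Col1a2 and Col1a1 of these genes are also on the list of stromal fibroblast markers, so the 2 lists are not independent. Of 14 stromal markers, 8 were lower, the shared genes among them, and 1 higher. The 13 markers other than Ptgds, with the shared genes included, summed to 2008 to 2139 CPM at P29 and 949 to 1149 CPM at 3M. The part of stromal RNA in these falls was not tested.

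Growth factors and their binding proteins were mixed, with 3 of 17 higher and 6 lower; without P29 replicate 1 only 1 was higher. Vegfa, which maintains the choroidal vessels and was chosen after its values were seen, lay at 177 to 209 CPM at P29 and 239 to 282 CPM at 3M (log2 fold change 0.41 ± 0.10, adjusted p = 0.00169). Angpt1, the ligand of the endothelial receptor Tek, fell by 1.38, and Igfbp3, Igfbp4 and Igfbp5, which bind insulin-like growth factors, fell by 2.51, 0.94 and 0.43 (adjusted p = 1.21e-05, 5.41e-05, 1.5e-11 and 4.23e-07).

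**Figure D3:**
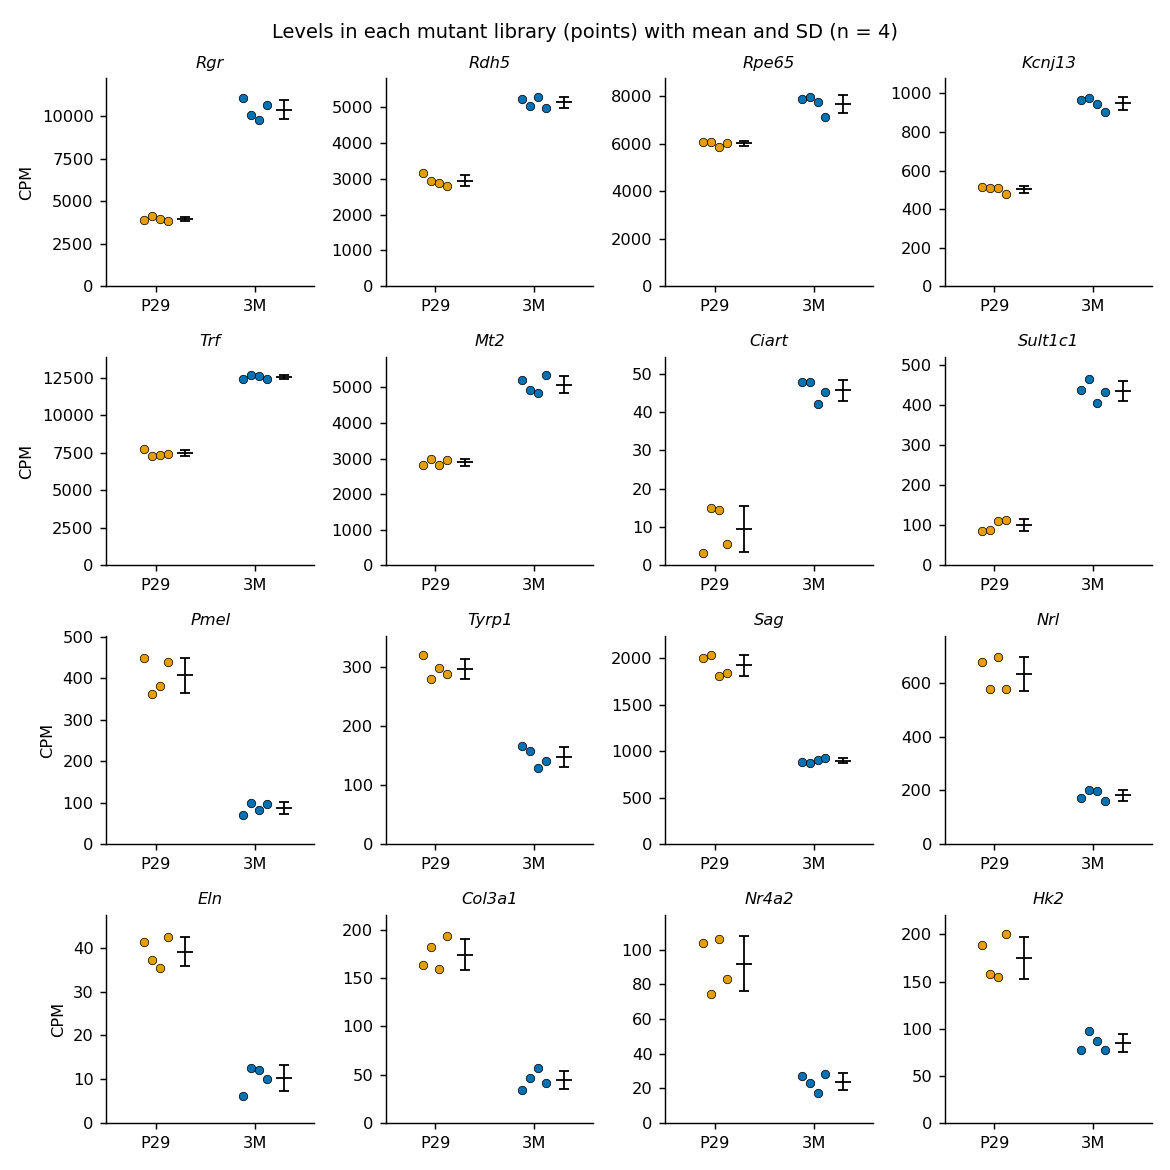
Points are the CPM of 16 genes in each of the 4 mutant libraries at P29 and at 3M, and black marks give the mean and SD of each group on axes that start at 0. For each gene shown the 2 groups do not overlap, with Rgr at 3846 to 4123 CPM against 9798 to 11069 CPM.

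Immediate early genes, which neurons and epithelia switch on within minutes of a stimulus, had more falls than rises at 3M: of 19 tested, 8 fell and 1 rose, with a median of -0.50. Nr4a2, an orphan nuclear receptor, moved from 104, 74.2, 106 and 82.8 CPM at P29 to 26.9, 23, 17 and 28.3 CPM at 3M (log2 fold change -1.94 ± 0.22, adjusted p = 2.85e-12). Klf2 lay at 84 to 109 CPM at P29 and 29.6 to 44.9 CPM at 3M and Ier3 at 67.7 to 92.8 CPM at P29 and 34 to 46.9 CPM at 3M, and they fell by 1.26 and 1.13 (adjusted p = 3.2e-08 and 7.39e-07). Fosb, a subunit of the factor AP-1, lay at 287 to 349 CPM at P29 and 203 to 230.2 CPM at 3M (log2 fold change -0.55 ± 0.10, adjusted p = 3.39e-05).

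Of 18 clock genes, 6 were higher and 2 lower, with a median of 0.18. Ciart, a repressor in the negative limb of the clock, had one of the largest rises. It stood at 3.22, 14.9, 14.5 and 5.47 CPM at P29 and 48, 47.8, 42.1 and 45.3 CPM at 3M; the P29 libraries differed among themselves more than those at 3M, yet the groups did not overlap (log2 fold change 2.25 ± 0.31, adjusted p = 7.78e-09). Dbp, a clock output factor, moved from 225, 214, 193 and 201 CPM at P29 to 383, 377, 361 and 345 CPM at 3M (log2 fold change 0.81 ± 0.10, adjusted p = 4.33e-11), and its relative Tef rose by 0.58 (adjusted p = 1.35e-06). Rorb, an activator of clock genes that photoreceptors also make, fell by 0.54 (adjusted p = 5.86e-07). The sources used here give no hour of collection, so age and time of day cannot be told apart for these genes.

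The promoter of Ciart is shown with its E-boxes, the letters CACGTG that clock activators bind, in capitals. It lies on the minus strand at chr3:95882179-95882478 (RefSeq, GRCm38.p6).
Ciart: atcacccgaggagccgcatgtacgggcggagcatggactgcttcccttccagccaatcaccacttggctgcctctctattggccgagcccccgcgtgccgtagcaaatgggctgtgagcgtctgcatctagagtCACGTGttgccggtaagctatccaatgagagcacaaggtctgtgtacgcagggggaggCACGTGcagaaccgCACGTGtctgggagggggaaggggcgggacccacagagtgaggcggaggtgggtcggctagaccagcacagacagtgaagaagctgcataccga
These letters, which read the same on both strands, occur 3 times in the window. At least 1 is found in 7.15% of 32851 promoters and at least 3 in 0.0883%. All 6 clock genes that rose had a promoter in the table, and 3 of them, Ciart, Bhlhe41 and Tef, held an E-box.

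Energy genes changed modestly. Of 18 genes of glycolysis, 5 were lower and 2 higher, with a median of -0.25. Hk2, a hexokinase, stood at 188, 158, 155 and 200.01 CPM at P29 and 77.6, 97.7, 87.3 and 77.5 CPM at 3M (log2 fold change -1.05 ± 0.17, adjusted p = 5.45e-07). Hk1, Aldoc and Pkm fell by 0.54, 0.65 and 0.35 (adjusted p = 3.39e-05, 0.000257 and 0.000132). The 2 that rose were Aldoa and Ldhb, neither of which was called without P29 replicate 3 and 1 of which was called without any of P29 replicate 4 or 3M replicates 1, 2 and 3. Of 38 nuclear genes of oxidative phosphorylation, 6 were higher and 1 lower, with a median of 0.06. This is 18.4% called in either direction, against 12.7% of all genes. Without 3M replicate 3 or P29 replicate 4, 3 were higher. Ndufc1 and Ndufb3, accessory subunits of complex I, rose by 0.46 and 0.56 (adjusted p = 0.00074 and 0.00388). Of 11 mitochondrially encoded genes, 3 fell, with mt-Co1 at 1803 to 2101 CPM at P29 and 1467 to 1500.0 CPM at 3M (log2 fold change -0.40 ± 0.056, adjusted p = 1.67e-08), mt-Nd1 falling by 0.23 and mt-Nd6 by 1.14 (adjusted p = 8.53e-06 and 0.000553). In cholesterol and fatty acid synthesis 1 of 26 genes was called: Acly, which makes cytosolic acetyl-CoA, fell by 0.61 (adjusted p = 0.0151), a call lost without P29 replicate 3 (adjusted p = 0.0769) or 3M replicate 4 (adjusted p = 0.0933).

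Genes of protein folding and stress responses were on separate lists. Of 14 heat shock genes, which serve the cytosol, 4 were higher, with a median of 0.17. Hsp90aa1, Hspa8 and Hsp90ab1 rose by 0.36, 0.54 and 0.37 (adjusted p = 7.51e-07, 2.15e-06 and 3.55e-06). The fourth was Cryab, whose call was lost in 7 of the fits without 1 mutant library (adjusted p = 0.0514 to 0.195) and with no low-count filter (adjusted p = 0.0694). The other list joined the unfolded protein response of the endoplasmic reticulum with the integrated stress response. Of its 19 genes, edgeR called 0 in either direction, with a median of 0.08. At an unadjusted p under 0.05, 1 was higher and 1 lower, DESeq2 called 0 and voom with quality weights called 1 in each direction.

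Of the immune lists, interferon and antigen presentation had 18.2% of its members called in either direction and complement and inflammation 31.2%, against 12.7% of all genes. Of 22 interferon and antigen presentation genes, 2 were higher and 2 lower. B2m, the light chain of class I molecules, rose by 0.29 and Ifi27, an interferon-induced gene, by 0.57 (adjusted p = 0.00247 and 0.00562). Ifitm3, a restriction factor of endosomes, fell by 0.79 (adjusted p = 0.0112), and Irf1 was the second gene called lower, a call lost in 5 of the fits without 1 mutant library (adjusted p = 0.0607 to 0.123). Of 16 genes of complement and inflammation, 4 were lower and 1 higher. C4b, a complement component, lay at 13.8 to 25.1 CPM at P29 and 1.79 to 8.19 CPM at 3M (log2 fold change -2.31 ± 0.57, adjusted p = 0.00187), and Serping1, the inhibitor of the first complement complex, fell by 0.89 (adjusted p = 2.12e-05). Tnfaip3, a brake on signalling through NF-kappa-B, fell by 1.54 (adjusted p = 0.00477).

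Ift20 itself was counted in every mutant library. It stood at 69.8, 57.7, 88.5 and 68.4 CPM at P29 and 115, 116, 116 and 97.1 CPM at 3M, and it was higher at 3M without overlap (log2 fold change 0.64 ± 0.16, adjusted p = 0.00152). The tag lies at the transcript's 3' end, and as the sources used here do not name the deleted part, these levels check nothing about the deletion. Among 27 genes of intraflagellar transport, of which 7.41% were called against 12.7% of all genes, Ift20 was the 1 called higher. Ift43, a subunit of the retrograde complex, was the 1 called lower (log2 fold change -0.73 ± 0.24, adjusted p = 0.027), but its groups overlapped, and leaving out any of 6 libraries (P29 replicates 1, 2 and 4, and 3M replicates 1, 2 and 3) ended the call, with an adjusted p of up to 0.15. The summed level of the transport genes was 912 to 969 CPM at P29 and 912 to 972 CPM at 3M.

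Among 34 genes of the BBSome, transition zone and basal body, 5 were lower and 1 higher, with a median of -0.28. This is 17.6% called in either direction, against 12.7% of all genes. Without 3M replicate 3, 3M replicate 4 or P29 replicate 2, 3 were lower. Arl6, the small GTPase that recruits the BBSome to membranes, moved from 31.7, 51.4, 38.7 and 54.3 CPM at P29 to 13.7, 21.3, 25.1 and 18.3 CPM at 3M (log2 fold change -1.18 ± 0.23, adjusted p = 6.38e-05). Arl13b, a GTPase of the ciliary membrane, and Cep290, a scaffold of the transition zone, fell by 0.87 and 0.52 (adjusted p = 0.00367 and 0.000836). Cep290 is long known for its part in the connecting cilium of photoreceptors, and rod transcripts also fell. The part of rod RNA in the fall of Cep290 was not tested.

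Of 3 pathways linked to the cilium, the Hedgehog list had 18.2% of its tested members called in either direction, the Wnt list 15.8% and the BMP and TGF-beta list 29.4%, against 12.7% of all genes. Of 11 Hedgehog genes, 2 were lower. Hhip, an inhibitor of the ligand, lay at 4.32 to 18.8 CPM at P29 and 1.3 to 3.9 CPM at 3M (log2 fold change -2.35 ± 0.56, adjusted p = 0.00126). Gli1, a target and effector of the pathway, fell by 1.81 (adjusted p = 0.0286), a call lost without P29 replicate 2 (adjusted p = 0.206), 3M replicate 1 (adjusted p = 0.091) or 3M replicate 4 (adjusted p = 0.0942). Of 19 Wnt genes, 1 was higher and 2 lower. Fzd4, a receptor that retinal vessels need, rose by 0.51, the ligand Wnt5a fell by 2.09 and Dkk3 by 0.90 (adjusted p = 3.56e-06, 6.38e-05 and 7.96e-06). In the list for BMP and TGF-beta, Bmp4 stood at 413, 587, 401 and 412 CPM at P29 and 829, 783, 694 and 926 CPM at 3M (log2 fold change 0.83 ± 0.15, adjusted p = 0.000579), with P29 replicate 2 well above the other 3 of its group. Id3, a target of BMP signalling, fell by 0.58 (adjusted p = 0.000306). That list had 2 genes higher and 3 lower of 17; 1 was higher without any of 3M replicates 1 and 2 or P29 replicates 3 and 4, and 1 was lower without 3M replicate 3 or P29 replicate 1.

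Transcription factors of the RPE and eye field gave 5 higher and 3 lower of 18. Otx2 and Sox9, which activate visual cycle genes in the RPE, lay at 875 to 1039 CPM at P29 and 1221 to 1313 CPM at 3M and at 624 to 646 CPM at P29 and 792 to 888 CPM at 3M. They rose by 0.39 and 0.40 (adjusted p = 5.72e-07 and 6.15e-06), and Six3 rose by 0.46 (adjusted p = 3.51e-05). Crx, the photoreceptor factor, stood at 148, 179, 146 and 127 CPM at P29 and 53.4, 58.6, 51.5 and 40.1 CPM at 3M and fell (log2 fold change -1.56 ± 0.13, adjusted p = 1.09e-18). The epithelial junction list had 2 higher and 1 lower of 18, which is 16.7% called against 12.7% of all genes. Jam3 and Cldn2, proteins of tight junctions, rose by 0.86 and 0.64 and Gja1, a gap junction protein, fell by 0.83 (adjusted p = 5.11e-06, 0.0082 and 1.58e-11).

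Of 19 cell cycle genes, 1 was higher and 3 lower, which is 21.1% called against 12.7% of all genes. The cyclins went opposite ways: Ccnd1 lay at 445 to 462 CPM at P29 and 598 to 652 CPM at 3M (log2 fold change 0.47 ± 0.076, adjusted p = 7.28e-07) and Ccnd2 at 290.2 to 341 CPM at P29 and 149 to 183 CPM at 3M (log2 fold change -0.98 ± 0.10, adjusted p = 7.85e-14). The inhibitors Cdkn1c and Cdkn1a fell by 0.98 and 0.79 (adjusted p = 2.27e-06 and 0.00637).

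Among called, named genes that did not overlap between the ages and averaged 10 CPM or more at either age, the largest rise was that of Fam107a, an actin-associated protein. It stood at 28, 31.4, 21.7 and 37.1 CPM at P29 and 163, 142, 150.5 and 193 CPM at 3M (log2 fold change 2.45 ± 0.20, adjusted p = 7.02e-17). Sult1c1, a cytosolic sulfotransferase, moved from 86.4, 88, 112 and 114 CPM at P29 to 439, 467, 405 and 432 CPM at 3M (log2 fold change 2.12 ± 0.12, adjusted p = 3.46e-28). Pttg1, known as securin, the guard of sister chromatid cohesion, moved from 44.6, 35.3, 35.7 and 40.6 CPM at P29 to 152, 154, 175 and 176 CPM at 3M (log2 fold change 2.07 ± 0.15, adjusted p = 1.86e-21). By that choice of genes, none of these groups overlapped. Nova2, a neuronal splicing factor, and Tcfl5 rose by 2.43 and 2.24 from P29 levels of 0 to 6.25 CPM (adjusted p = 0.00135 and 0.00418). Hist1h4h, Dgkb, Tgfa, Slc41a2, Enho and Tpbgl rose by 1.43 to 1.88 on the log2 scale. Arl6ip1, a shaper of endoplasmic reticulum membrane, had one of the smallest p-values, at 4612, 4616, 4602 and 4439 CPM at P29 and 8439, 9112, 9247 and 8975 CPM at 3M (log2 fold change 0.97 ± 0.044, adjusted p = 7.66e-36), and Ndrg2 lay at 167 to 221 CPM at P29 and 512 to 547 CPM at 3M (log2 fold change 1.39 ± 0.088, adjusted p = 9.62e-26).

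The isolates also held RNA of neighbouring tissues, and several of these signals moved between the ages. Of 18 rod markers, 17 were lower at 3M and 1, Slc24a1, higher, with a median log2 fold change of -1.20. They summed to 18643 to 19864 CPM at P29 and 9395 to 9934 CPM at 3M, and in controls to 13492 to 14436 and 5626 to 6029 CPM. None was at 0. Nrl, the factor that sets rod fate, moved from 681, 579.6, 698 and 579.7 CPM at P29 to 170.4, 200.3, 199.8 and 159 CPM at 3M (log2 fold change -1.80 ± 0.085, adjusted p = 8.52e-35). Gnat1, Pde6g and Rcvrn of the transduction cascade fell by 1.33, 1.39 and 1.67 (adjusted p = 1.26e-33, 1.3e-33 and 4.83e-32). Crx, Rbp3, Tulp1 and Rorb, which fell in lists above, are also transcribed in photoreceptors, and the part of rod RNA in those falls was not tested. The cone list had 1 higher and 1 lower of 9, the fall being that of Guca1a, a calcium sensor that rods share, by 1.199 (adjusted p = 1.49e-10).

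The promoter of Sag, rod arrestin, is printed as the counterpart of that of Rgr, since it holds the same core letters beside a gene that fell. It was chosen after values were seen and lies on the plus strand at chr1:87803430-87803729 (RefSeq, GRCm38.p6), with the core, here on the opposite strand, in capitals.
Sag: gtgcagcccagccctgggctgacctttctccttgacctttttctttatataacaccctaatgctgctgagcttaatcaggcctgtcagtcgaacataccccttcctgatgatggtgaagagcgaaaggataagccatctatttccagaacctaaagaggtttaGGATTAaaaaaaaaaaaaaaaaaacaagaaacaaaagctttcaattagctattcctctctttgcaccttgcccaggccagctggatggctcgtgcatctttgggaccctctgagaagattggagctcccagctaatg
Sag stood at 2008, 2032, 1815 and 1842 CPM at P29 and 886, 876, 907 and 928 CPM at 3M (log2 fold change -1.10 ± 0.059, adjusted p = 7.27e-31). Of the 17 rod markers that fell, 9 had a promoter in the table and 4 held the letters TAATCC (Cnga1, Cngb1, Gngt1 and Sag). The core was therefore found beside genes that rose and beside genes that fell.

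Lens transcripts all but vanished between the ages. Of 18 tested markers, 16 were lower and 1 higher, and 14 of the 15 largest falls among named genes were of lens genes. Cryba4, a beta crystallin, stood at 54.2, 46.7, 38.7 and 57.4 CPM at P29 and 0 CPM in all 4 libraries at 3M; its 475 counts over the P29 group and 0 at 3M make it at least 165-fold lower, against a floor of 3 counts over the group. Cryaa, the alpha crystallin of the lens, fell from 1916 counts to 2, a ratio of 1001 (95% exact interval 277 to 8268, counting error only). Cryba1 moved from 169.6, 225, 191 and 195 CPM at P29 to 0, 0.869, 0.896 and 0 CPM at 3M, and Mip, the water channel of lens fibres, from 63.4, 71.1, 91.5 and 63.7 CPM at P29 to 1.56, 0.869, 1.34 and 0 CPM at 3M. Crygs, Crygb, Crygc, Crygd, Cryge, Cryba2, Crybb1, Crybb2, Crybb3 and Bfsp1 also fell. The gamma crystallins Crygb, Crygc, Crygd and Cryge are close copies. Reads aligned to several places were counted apart from the genes, so reads that fit several copies may be missing from these levels. Cryba4, Cryga, Crygf and Gja3 were at 0 in all 3M libraries. Without Cryab, which the RPE also expresses, the list summed to 1317 to 1390 CPM at P29 and 24.6 to 39.4 CPM at 3M, while in controls it summed to 53.3 to 75.1 and 21.8 to 26.1 CPM. The high value is thus that of the P29 mutant libraries, all 4 alike. The median of the list was -6.96, or -6.67 with the 2 tested members at 0 set to their bounds.

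Many endothelial markers fell as well. Of 15 endothelial markers 11 were lower and 1 higher; without 3M replicate 1, 7 were lower. Kdr, the main receptor of Vegfa, lay at 25.1 to 36.3 CPM at P29 and 7.4 to 17.6 CPM at 3M (log2 fold change -1.42 ± 0.25, adjusted p = 4.19e-06). Plvap, which forms the diaphragms of fenestrated capillaries, fell by 2.05 (adjusted p = 2.68e-05), and Tek went from 61 counts to 0, at least 21.2-fold lower. Ramp2, a receptor partner that other cells share, was the marker that rose, by 0.64 (adjusted p = 7.67e-05); without it the list summed to 146 to 157 CPM at P29 and 44.3 to 52.9 CPM at 3M. Notch3 and Abcc9, the 2 called of 10 pericyte and smooth muscle markers tested, fell by 2.87 and 3.08 (adjusted p = 0.00318 and 0.0043). The median of that list was -0.13, and its sums overlapped, at 283 to 326 CPM at P29 and 269 to 314 CPM at 3M. Among stromal markers, Dcn fell by 0.67 and Mfap5 by 1.31 (adjusted p = 8.67e-11 and 1.36e-05). Ptgds, the prostaglandin synthase of the eye and meninges, instead rose from 24132, 25935, 23936 and 25002 CPM at P29 to 46044, 46303, 47274 and 51001 CPM at 3M (log2 fold change 0.94 ± 0.044, adjusted p = 3.67e-23).

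Of 21 inner retinal markers, 6 were lower and 1 higher. Calb2, of amacrine and ganglion cells, moved from 7.81, 20.03, 18.3 and 14.5 CPM at P29 to 1.56, 1.3, 0 and 1.31 CPM at 3M, Nefl, a neurofilament, fell by 2.24 (adjusted p = 1.07e-05), and Gad2 went from 30 counts to 0, at least 10.4-fold lower. The globins Hbb-bs, Hbb-bt, Hba-a1 and Hba-a2 of red cells, which are near-identical pairs, fell by 0.48, 0.58, 0.72 and 0.60, and 5 of 7 erythrocyte markers were lower. Markers of macrophages split: Csf1r, their growth factor receptor, moved from 344, 292, 319 and 295 CPM at P29 to 545, 556, 561 and 594 CPM at 3M (log2 fold change 0.85 ± 0.084, adjusted p = 1.29e-14), Lyz2 rose by 0.84 and C1qc fell by 1.21 (adjusted p = 0.00242 and 0.00377), with 2 of 17 higher and 2 lower. Without Csf1r the list summed to 173 to 202 CPM at P29 and 131 to 178 CPM at 3M. S100a8, of granulocytes, was at 0 in every P29 library and had 34 counts at 3M, at least 10.9-fold higher. Among melanocyte markers Sox10 rose by 0.66 and Ednrb fell by 1.75 (adjusted p = 0.000763 and 0.00589), in a list with 1 of 8 higher and 3 lower; without Dct it summed to 737 to 817 CPM at P29 and 702 to 817 CPM at 3M. The myelin gene Mobp fell by 3.24 (adjusted p = 0.000343), in a list with 1 of 10 higher and 3 lower, or 1 lower without P29 replicate 3. Without Sox10 that list summed to 190.5 to 252.3 CPM at P29 and 190.4 to 233.2 CPM at 3M. The surface keratins Krt5 and Krt15, the 2 called of 5 such markers tested, fell by 2.79 and 1.96 (adjusted p = 0.00781 and 0.002). The part of these cells in the changes of shared genes was not tested.

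**Figure D4:**
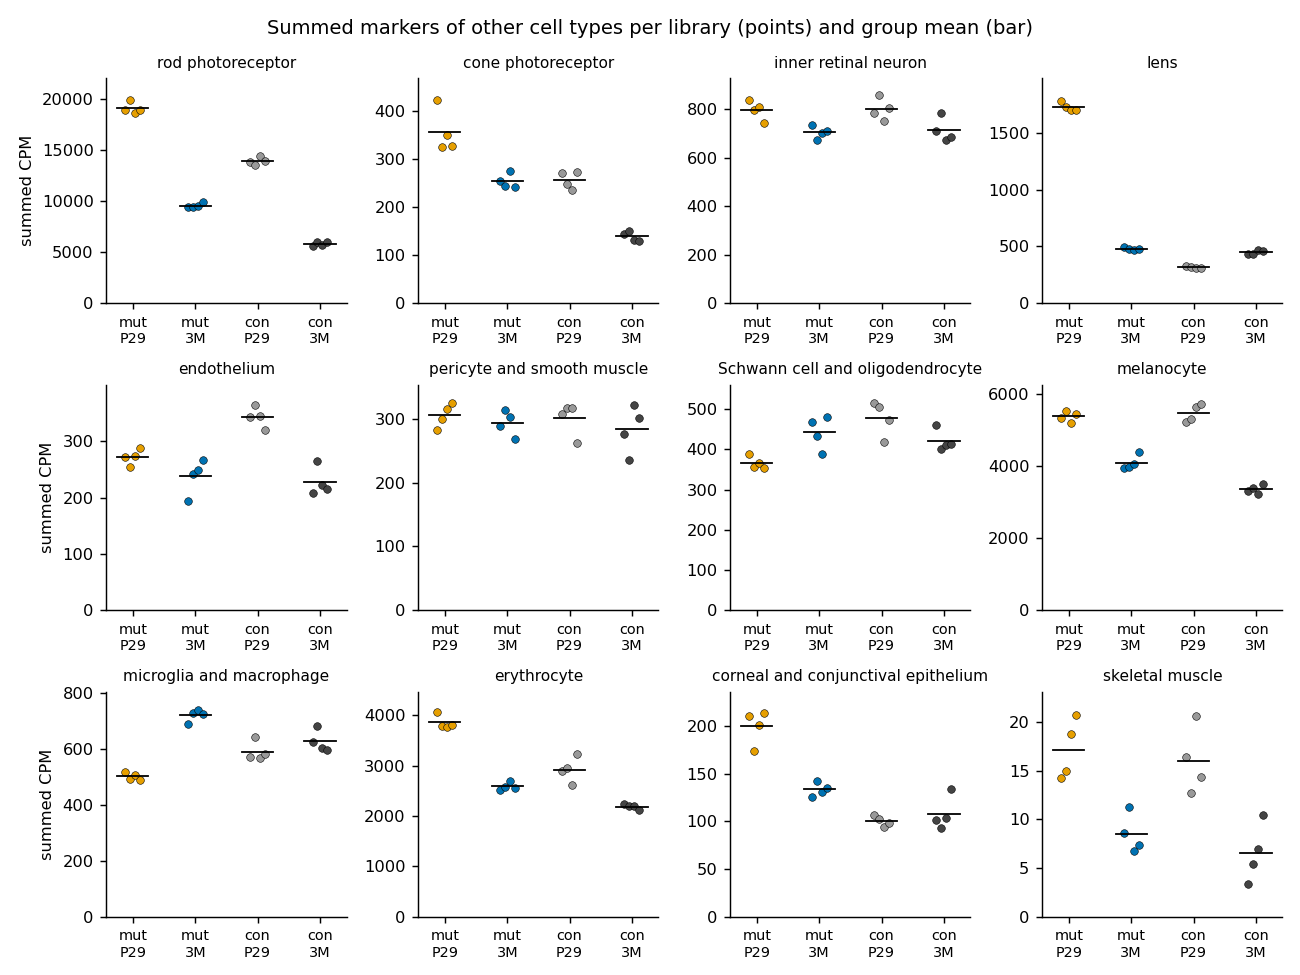
Points are the summed CPM of each marker list in every library of mutants (mut) and controls (con) at P29 and 3M, with bars at the group means. Rod sums fall with age in both genotypes, and the lens sum stands out at P29 in mutants, at 1702 to 1778 CPM with Cryab included.

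Controls, which carried Cre as well, were compared at the same ages in the same fit. In controls 1475 genes changed (12% of those tested), 429 higher (3.49%) and 1046 lower (8.5%). Of the genes called in mutants, 50.4% were called in controls in the same direction, 238 higher and 550 lower, which is 53.4% of the control calls, and 7 were called in opposite directions. Visual cycle genes counted 10 higher and 1 lower there too, and rod markers 17 lower. Sult1c1 rose by 2.13 in controls, Ciart by 2.25 and Trf by 0.61, and Pmel and Nrl changed by -1.84 and -1.76. None of these 5 was called in the test of the difference (adjusted p from 0.105 to 1), which does not show that they changed alike.

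Sex make-up moves with the control ages and has to be read beside any difference between genotypes. Xist lay at 137 to 153 CPM in control libraries at P29 and at 0 to 4.78 CPM in those at 3M, and Y-linked transcripts at 208 to 245 and 254 to 301 CPM. For controls, age and sex make-up cannot be told apart. The test of the difference of the age effect called 105 genes (0.853%), 75 with a higher log2 fold change in mutants (0.61%) and 30 with a lower one (0.244%). With the sex score as a covariate, 4 and 17 were called, and of the 34 such genes named here with values Klf4 and Ptgds remained called. The direction was the same in 31 of the 34, and in 25 the difference was at least as large as without the covariate. The score lay at -0.707 to -0.466 in control libraries at P29 and at -8.24 to -5.66 in those at 3M. A fit with this covariate therefore cannot separate sex make-up from age in controls. Neither a lost call nor the size of an adjusted difference shows what part sex make-up has. Every difference below is to be read with that limit.

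The 10 genes with the smallest p of the difference include several immediate early genes. Fosb stood at 287 to 349 CPM in mutants and 483 to 570 CPM in controls at P29, and at 203 to 230 and 120 to 148 CPM at 3M; it fell by 0.55 in mutants and by 2.03 in controls (difference 1.48 ± 0.15, adjusted p = 2.18e-12). Klf4, an epithelial factor, stood at 139 to 193 CPM in mutants and 282 to 291 CPM in controls at P29, and at 133 to 166 and 56.8 to 99.1 CPM at 3M (difference 1.73 ± 0.18, adjusted p = 8.41e-12). Jun stood at 387 to 436 and 560 to 653 CPM at P29, and at 438 to 485 and 339 to 386 CPM at 3M, in mutants and controls respectively (difference 0.91 ± 0.13, adjusted p = 2.41e-07). For each of these genes mutant libraries were below control libraries at P29 and above them at 3M. The immediate early list as a whole had 8 members lower in mutants and 12 in controls, and 6 of 19 were called for the difference, each with a higher value in mutants.

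**Figure D5:**
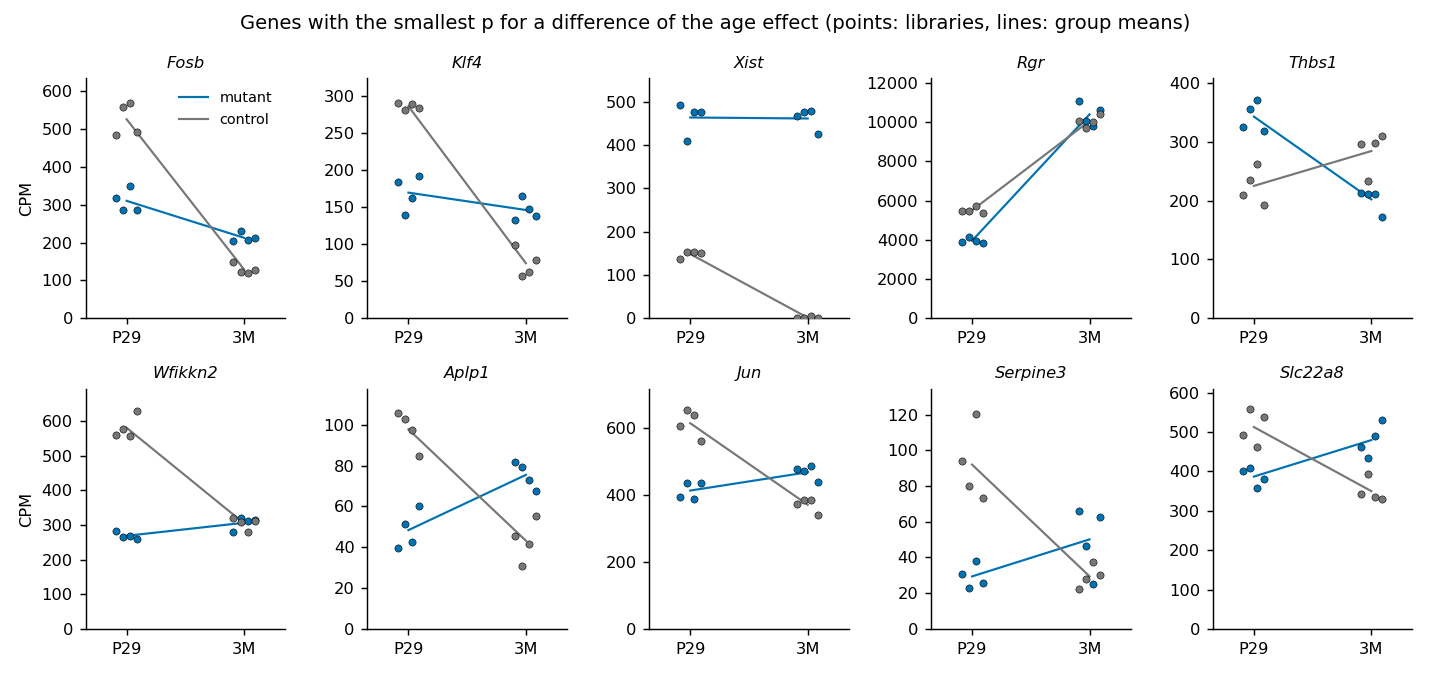
Points are CPM per library and lines join the group means of mutants and controls at P29 and 3M, for the 10 genes with the smallest p of the difference, on axes that start at 0. Rgr starts lower in mutants (3846 to 4123 CPM) and ends at 9798 to 11069 CPM, within reach of the controls.

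Rgr rose in both genotypes, by 1.39 in mutants and 0.87 in controls (difference 0.52 ± 0.064, adjusted p = 2.81e-09). At P29 it stood at 5379 to 5706 CPM in controls, above every mutant library, and at 3M at 9727 to 10422 CPM, overlapping with mutants. Rdh5 also rose more in mutants (difference 0.30 ± 0.072, adjusted p = 0.0116), a call lost without P29 mutant replicate 4 (adjusted p = 0.0525). Thbs1 fell in mutants and rose in controls, where it ranged from 192 to 263 CPM at P29 and from 232 to 310 CPM at 3M (difference -1.10 ± 0.13, adjusted p = 2.81e-09). Wfikkn2, a protease inhibitor that binds growth factors of the TGF-beta family, was at 259 to 283 CPM in mutants and 557 to 628 CPM in controls at P29, and at 280 to 319 and 279 to 319 CPM at 3M (difference 1.12 ± 0.14, adjusted p = 2.97e-09). Aplp1, a relative of the amyloid precursor, rose by 0.64 in mutants and fell by 1.18 in controls (difference 1.81 ± 0.24, adjusted p = 3.78e-08). Slc22a8, an organic anion transporter, and Serpine3 had the same pattern (differences 0.86 ± 0.12, adjusted p = 6.59e-07 and 2.42 ± 0.33, adjusted p = 2.77e-07), but their rise in mutants was lost when single mutant libraries were left out, Slc22a8 without P29 replicate 3 (adjusted p = 0.0501) or 3M replicate 4 (adjusted p = 0.0754) and Serpine3 without P29 replicate 2 (adjusted p = 0.0821) or P29 replicate 4 (adjusted p = 0.0646) or 3M replicate 1 (adjusted p = 0.133) or 3M replicate 4 (adjusted p = 0.101). Xist completes the 10.

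In the list of the unfolded protein and integrated stress responses, edgeR called 0 of 19 genes in mutants. There voom called 1 in each direction and 2 genes had an unadjusted p under 0.05. In controls edgeR called 7 higher and 2 lower, and it called 4 for the difference. These 4 were chosen after their values were seen. Hspa5, the lumenal chaperone BiP, stood at 845 to 936 CPM in mutants and 720 to 768 CPM in controls at P29, and at 741 to 846 and 973 to 1064 CPM at 3M (difference -0.63 ± 0.10, adjusted p = 4.25e-06). Manf, a secreted stress factor, and Xbp1, the factor activated by splicing, had differences of -1.29 ± 0.25, adjusted p = 0.0005 and -1.33 ± 0.26, adjusted p = 0.000759. In all 3 the mutants lay below the controls at 3M without overlap. Atf4, the effector of the integrated stress response, went the other way (difference 0.64 ± 0.14, adjusted p = 0.00507). With the sex score as a covariate the values were -0.50, -1.71, -2.08 and -0.04, none of them called (adjusted p from 0.544 to 1).

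Other named genes with a called difference were Psap, Apoe, Slc2a1, Sox9, Ramp2, Ptgds, Pttg1, Ndrg2 and Arl6ip1, which changed more towards higher levels in mutants (differences of 0.31 to 1.32), and Sag, Pde6g, Tulp1, Dct, Dcn, Ccnd2 and Igfbp5, which fell less in mutants (differences of 0.35 to 0.63). Sox9 and Apoe rose in mutants and were not called in controls (log2 fold changes -0.11 and 0.035). mt-Co1, Mip and Bfsp1 had a lower log2 fold change in mutants (differences -0.39, -4.47 and -6.66). Mip fell in controls too, by 1.70 (adjusted p = 0.0104). There mt-Co1 was not called (log2 fold change -0.0069, adjusted p = 0.969), and neither was Bfsp1 (adjusted p = 0.403), which had at most 1.74 CPM in any control library. Some of these calls rested on single libraries or settings. With no low-count filter those of Rdh5 and Igfbp5 were lost (adjusted p = 0.052 and 0.0668), and DESeq2 did not call Bfsp1 (adjusted p = 0.201). That of Ccnd2 was lost without control P29 replicate 4, control 3M replicate 4 or mutant 3M replicate 3 (adjusted p = 0.053, 0.0919 and 0.0651). That of Igfbp5 was lost without control P29 replicate 3 or control 3M replicate 2 (adjusted p = 0.055 and 0.0577). For Bfsp1, leaving out any of 10 libraries, all but control P29 replicate 3, control 3M replicates 2 and 4, mutant P29 replicates 2 and 4 and mutant 3M replicate 3, gave an adjusted p of 0.055 to 0.395.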

How the data were processed

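RNA of isolated RPE was counted by the authors in whole-number counts per gene, 1 deposited file per library, holding 31053 gene identifiers and 5 summary entries without a gene. Library sizes and tests did not use the summary entries; reads outside any feature made up 18.6% to 21.1% of the entries of the mutant libraries. Per the labels' protocols, libraries were made from 100 ng of total RNA with a 3' mRNA-Seq kit and read from 1 end over 100 bases. STAR and mm10 are named in the submitters' processing notes. Which counting tool and annotation were used, and whether strand or molecular identifiers were used, are points not given in the sources used here. A GENCODE annotation of GRCm38, the assembly of mm10, gave symbols and positions; 31011 identifiers were found in it.

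Groups follow the genotype and age in the labels. Counts were fitted with edgeR 4.0.16 in R 4.3.3 (TMM, filterByExpr, robust quasi-likelihood test) over all 24 libraries with 1 mean per group. CPM were scaled by TMM factors, and the floor of 3 counts covers counting error only. The script was tested on simulated data. For library measures, means were compared with an exact permutation test, two-sided. Replicate pairs of the mutants all differed by more than sampling noise.

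The members and the 47 gene lists were chosen with earlier results of these data known. Genes to be named were Ift20; the 15 largest rises and falls and the 6 smallest p in each direction among called, named genes that averaged 10 CPM or more at either age and whose groups did not overlap; up to 4 called members of each list by p; and the 10 smallest p for the difference between genotypes. Some genes of this rule whose calls were lost on leaving out a library are not described, and a few genes are not reported here. Rpe65, Vegfa, Sag, Hspa5, Manf, Xbp1 and Atf4, and list members given by name alone, were chosen after values were seen.

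Other settings were size factors by median of ratios, a DESeq2 1.42.0 fit, voom of limma 3.58.1 weighted by library quality, all genes unfiltered (19634), genes at 5 CPM or more in 4 libraries (11931), a fit of the compared libraries alone, a replicate block, a covariate for the sex score, and fits without each of 16 libraries. Same-numbered libraries of the 2 ages did not deviate together (correlations of -0.0236 to -0.0148 over 10500 genes), so the numbers were not taken as pairs.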

Additional observations from a re-analysis of the deposited data

Results flagged for a closer look

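Among 340 groups of 4 mutant libraries compared for named genes and library measures, 21 had 1 library set apart from the other 3 by a gap above Dixon's 95% critical value as a share of the group's whole range. Chance alone flags about 1 in 20 groups. P29 replicate 1 stood apart for Cryaa (gap of 0.875 of the range) and Nefl (gap of 0.854 of the range). P29 replicate 2 stood apart for Bmp4 (gap of 0.937 of the range). P29 replicate 3 stood apart for B2m (gap of 0.867 of the range). P29 replicate 4 stood apart for Arl6ip1 (gap of 0.919 of the range), Kcnj13 (gap of 0.958 of the range) and Lyz2 (gap of 0.923 of the range). 3M replicate 1 stood apart for Crybb2 (gap of 1 of the range). 3M replicate 2 stood apart for Cryge (gap of 1 of the range), Ier3 (gap of 0.853 of the range) and Hbb-bs (gap of 0.908 of the range). 3M replicate 3 stood apart for Cryaa (gap of 1 of the range), Calb2 (gap of 0.835 of the range), Ctsd (gap of 0.941 of the range), Hba-a1 (gap of 0.957 of the range) and Krt15 (gap of 0.95 of the range). 3M replicate 4 stood apart for Ift20 (gap of 0.927 of the range), Dgkb (gap of 0.92 of the range), Crygs (gap of 0.871 of the range), Thbs1 (gap of 0.951 of the range) and Tef (gap of 0.865 of the range). At 3M Cryaa, Crybb2 and Cryge had 2 counts each over the group and Crygs had 3. Their flags at that age rest on these few reads.

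The change from P29 to 3M differed between mutants and controls for 34 named genes by edgeR's test of the difference itself, at an adjusted p under 0.05. The log2 fold change was higher in mutants than in controls, by the amount in brackets, for Xist (6.91), Serpine3 (2.42), Aplp1 (1.81), Klf4 (1.73), Fosb (1.48), Pttg1 (1.32), Wfikkn2 (1.12), Ramp2 (0.92), Jun (0.91), Slc22a8 (0.86), Atf4 (0.65), Dcn (0.63), Tulp1 (0.62), Ccnd2 (0.60), Ndrg2 (0.58), Rgr (0.52), Sox9 (0.52), Psap (0.50), Slc2a1 (0.44), Ptgds (0.43), Sag (0.42), Pde6g (0.42), Igfbp5 (0.39), Apoe (0.36), Dct (0.35), Arl6ip1 (0.31) and Rdh5 (0.30). It was lower in mutants for Bfsp1 (-6.66), Mip (-4.47), Xbp1 (-1.33), Manf (-1.29), Thbs1 (-1.10), Hspa5 (-0.63) and mt-Co1 (-0.39). The sex make-up of the control libraries differs between their ages, so for all of these genes age and sex make-up in controls cannot be told apart. With the sex score as a covariate Klf4 (2.66, adjusted p = 0.0298) and Ptgds (1.12, adjusted p = 2.58e-06) stayed called, and by voom with quality weights Ptgds was not called (adjusted p = 0.6).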

How the results depend on the processing

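The 154 genes given with values and called in mutants kept their direction in the fits that changed the normalisation, tool, filter, libraries fitted, block or covariate, and the 153 to 154 tested stayed called. This does not measure stability, since some genes of the naming rule were left out because their calls were lost without a library. Of those left out, Id4, Acta1, Cldn11, Cx3cr1, Gnat2, Kctd11 and Kdm5d also lost their call in at least 1 of these fits. Without single mutant libraries, 669 and 895 calls became 519 to 607 and 724 to 797; Ift43, Acly, Gli1, Slc22a8 and Serpine3 lost their call in at least 1 such fit. Of 28 called genes given by name alone or without a fold change, 9 did (Aldoa, Cryab, Fth1, Hspg2, Irf1, Lamc1, Ldhb, Nqo1 and Txnrd1), and 3 with no low-count filter (Cryab, Ldhb and Txnrd1). Voom with quality weights called 1022 genes higher and 1068 lower, and a fit of only the libraries compared called 958 and 1077; both also called the small fall of Hspa5. For the difference between genotypes voom called 133 and 49, a fit of only the libraries compared 97 and 61, and DESeq2 102 and 45. With the sex score as a covariate the control age effect fell to 14 and 31 calls and the difference to 4 and 17, and the differences of Ccnd2, Igfbp5 and Atf4 changed sign (-0.76, -0.063 and -0.035). The score does not overlap between the control ages. With the replicate number as a replicate block, 662 and 860 genes were called in mutants, 422 and 1017 in controls and 77 and 27 for the difference; correlations of same-numbered libraries do not pair them. Without single libraries the control counts lay at 319 to 422 and 857 to 1042, and those of the difference at 64 to 90 and 22 to 32. Small library measures changed sign: the difference in genes with a count was -14.8, and ran from -44.2 to 23.1 without single libraries (1.42 and 23.1 without P29 replicates 3 and 4). That in reads aligned to several places was -0.0877 points, 0.0462 by medians and -0.189 to 0.115 without single libraries, positive without 3M replicate 1. The mitochondrial share differed by -0.0403 points, and by 0.061 by medians and by -0.269 to 0.204 without single libraries (0.0548, 0.162 and 0.204 without 3M replicates 2 and 3 and P29 replicate 2). The cause of these changes was not tested. Depth limits genes of low level, since the floor of 3 counts lies above 1 CPM in a library.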
